A study of Homo sapiens with 13 samples.

Results

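Described here are the 2 libraries, of 13 in the series, made from LNCaP-abl cells that received siRNA pools labelled siMALAT1 and siPCAT1. Each was set against the 1 control siRNA library, siControl2, and the other 10 knockdown libraries (siBRCA1, siBRCA2, siCTCF, siEED, siEZH2, siFOXA1, siFOXM1, siKDM1A, siRAD21 and siSMARCA4) served only as background. LNCaP-abl was derived from the LNCaP prostate cancer line and grows without androgen. It was kept here in phenol-red-free medium with charcoal-stripped serum, which is depleted of steroids. All 13 libraries, the control included, came from cells transfected with Lipofectamine RNAiMAX, and RNA was taken 72 h later. Each condition is 1 library of 1 cell line, so no difference below has a replicate error and none was tested.

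MALAT1 is a long noncoding RNA that stays in the nucleus, where it gathers in speckles rich in pre-mRNA splicing factors. It is abundant in many tumours and is studied for its links to splicing, proliferation and metastasis. PCAT1 is a long noncoding RNA named for its association with prostate cancer, where it has been linked to cell proliferation and to repair of DNA by homologous recombination through BRCA2. The deposited values hold no entry under the name PCAT1, so nothing below checks that label.

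MALAT1 was not low in the library made with its own siRNA pool. It stood at 16.4 FPKM (fragments per kilobase, scaled to library size) in the control, at 21.7 in the library labelled siMALAT1 and at 20.6 in the one labelled siPCAT1. Over the other 10 knockdowns it ran from 13.8 through a median of 16.8 to 26.9. Its level under its own siRNA was thus 1.32 times the control and the 12th lowest of 13, with only siSMARCA4 higher. On the scale used from here on, log2(FPKM + 1), it lay 0.38 above the control in the first library and 0.31 above it in the second. NEAT1, the neighbouring long noncoding RNA that builds paraspeckles, stood at 182, 181 and 167 FPKM in the same order, against 144 to 293 over the other knockdowns. The MALAT1 level goes against the label, so each direction given below belongs to the library labelled siMALAT1 and is not shown to follow from loss of MALAT1. The names siMALAT1 and siPCAT1 below stand for the libraries so labelled.

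The labelled cell type was present by its markers. Summed over 21 luminal prostate markers, FPKM came to 1793 in siMALAT1, 1499 in siPCAT1 and 1402 in the control, against 1210 to 1796 over the other knockdowns. KLK3 (prostate-specific antigen), an androgen-induced gene, was under 1 FPKM in all 13 libraries. Marker sums of basal cells (12.8, 17.0 and 16.3), mesenchymal cells (12.5, 9.88 and 12.4) and immune cells (6.31, 8.41 and 6.14) were small in these 3 libraries. However, only 3 of 9 basal, 7 of 15 mesenchymal and 2 of 8 immune markers had an entry, against 21 of 21 luminal ones. A marker without an entry adds nothing to a sum, so small sums do not show that a cell type was absent. The neuroendocrine sum was larger, at 75.4, 69.8 and 74.9 against 28.3 to 72.7 over the other knockdowns. It came mostly from ENO2 (41.6, 49.9 and 54.6) and GCG (30.6, 16.9 and 16.6), while CHGB and SYP were under 1 FPKM in all 13 libraries. The part of these markers in the results below was not tested. The sequencing depth is unknown, and the values of all libraries had already been brought to 1 distribution before deposit.

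Both libraries had lower levels of cell division genes than the control. Among 15780 genes, 308 (1.95%) were at least 2-fold from the control in siMALAT1 and 261 (1.65%) in siPCAT1. Of all genes, 247 were at least 2-fold lower than the control (a difference of 1 or more) in siMALAT1, which is 1.57%, and 61 were at least 2-fold higher (0.387%). In siPCAT1, 210 were lower (1.33%) and 51 higher (0.323%). In bulk RNA, fewer dividing cells and less RNA per cell cannot be told apart. The genes lower in both numbered 157 (0.995%), that is 63.6% of those lower in siMALAT1 and 74.8% of those lower in siPCAT1. Higher in both were 16 genes (0.101%), or 26.2% and 31.4% of the respective lists, and 0 genes were 2-fold away in opposite directions. Both comparisons use the same control library, so a value peculiar to that library enters both, and these overlaps are no evidence of a shared effect.

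Of the 157 genes lower in both, 54 belonged to the lists of mitotic, replication and homologous recombination genes. Those lists had 28, 27 and 22 measured members, and 0.995% of all 15780 genes were lower in both. MYBL2, a transcription factor that activates cell cycle genes, was at 25.9 FPKM in the control, 6.34 in siMALAT1 and 5.81 in siPCAT1, differences of -1.88 and -1.99. RRM2, the regulatory subunit of the enzyme that makes deoxyribonucleotides, was at 41.1, 11.6 and 11.2 FPKM in the same order. CDC45 and GINS2, both parts of the replicative helicase, were at 13.8, 3.13 and 3.63 and at 19.8, 5.04 and 5.28. Each of these was more than 2-fold below the control in both libraries.

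The other 4 of the 8 genes named by rule have roles in chromatin and mitosis. ASF1B, a histone chaperone, was at 16.5 FPKM in the control, 4.44 in siMALAT1 and 4.39 in siPCAT1. CEP55, needed for the final separation of daughter cells, was at 19.3, 5.51 and 5.34. CDCA3, which takes part in entry into mitosis, was at 35.3, 10.9 and 8.85, and FAM64A, a mitotic gene also named PIMREG, at 18.9, 5.55 and 5.42. Between siMALAT1 and siPCAT1 these 8 genes differed by 0.27 or less.

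Promoters of 3 of these 8 genes are shown because they hold, in different combinations, the motifs through which cell cycle genes are known to be controlled. They were chosen after their motifs had been seen. The motifs are the cell cycle homology region (CHR, TTTGAA), bound by the DREAM and MYB-MuvB complexes; the CCAAT box (CCAAT), bound by NF-Y; and an E2F site (TTTNNCGC). Both strands were searched, so a match on the other strand reads as the reverse complement of these letters, and the 3 motifs do not contain each other. Each line gives the 250 bases before the gene's start, 5′ to 3′ on the gene's strand, from RefSeq on GRCh38.p14, with matches in capitals. GINS2 lies on the minus strand at chr16:85688955-85689204, ASF1B on the minus strand at chr19:14136590-14136839 and CEP55 on the plus strand at chr10:93496362-93496611.
GINS2: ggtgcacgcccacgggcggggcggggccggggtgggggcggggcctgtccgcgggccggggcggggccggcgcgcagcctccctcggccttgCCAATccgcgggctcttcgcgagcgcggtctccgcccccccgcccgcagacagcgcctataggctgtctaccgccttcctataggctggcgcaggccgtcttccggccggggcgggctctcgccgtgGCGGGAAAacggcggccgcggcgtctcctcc
ASF1B: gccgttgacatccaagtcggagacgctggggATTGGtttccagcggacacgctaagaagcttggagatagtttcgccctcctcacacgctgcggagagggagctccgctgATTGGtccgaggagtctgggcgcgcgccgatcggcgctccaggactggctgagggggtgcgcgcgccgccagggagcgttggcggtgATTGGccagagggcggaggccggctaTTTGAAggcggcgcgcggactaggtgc
CEP55: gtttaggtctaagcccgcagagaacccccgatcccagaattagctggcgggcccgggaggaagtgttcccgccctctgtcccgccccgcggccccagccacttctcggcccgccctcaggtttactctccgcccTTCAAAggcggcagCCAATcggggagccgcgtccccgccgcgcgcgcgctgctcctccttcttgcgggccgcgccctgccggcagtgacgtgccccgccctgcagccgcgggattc
GINS2 shows 1 CCAAT box and 1 E2F match, ASF1B 3 CCAAT boxes and 1 CHR match, and CEP55 1 of each of the latter.

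Over windows that also include the first 50 bases after the start, a promoter was found for 118 of the 157 genes lower in both and for 10408 of all 15780 genes. The CHR letters were in 43.2% of these 118 and in 9.59% of all promoters. A CCAAT box was in 71.2% against 37.1%, an E2F match in 23.7% against 10.5%, and CHR with CCAAT in 35.6% against 4.01%. Among genes 2-fold lower in siMALAT1 and not in siPCAT1, with 62 promoters of 90 genes, the shares were 25.8% for CHR, 45.2% for CCAAT and 33.9% for E2F. For genes 2-fold lower only in siPCAT1, with 30 of 53, they were 16.7%, 63.3% and 10% in that order. These shares describe letters in a window and do not show binding.

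These genes were at about the median level of the other knockdowns. Against the median of the other 10 knockdowns, the 157 genes had a median difference of 0.07 in siMALAT1 and 0.15 in siPCAT1, and 59 and 46 of them lay below that median. Against the control the medians were -1.39 and -1.29. The size of these differences therefore depends on the reference used, and the other 10 knockdowns differed among themselves, as the G2/M list below shows.

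The G2/M list, genes needed for mitosis, had a median of -1.48 in siMALAT1 and -1.41 in siPCAT1, where the median over all genes was 0.01 and 0.02. All 28 measured members were 2-fold lower in the first and 27 of 28 in the second, beside 1.57% and 1.33% of all genes. Medians in the other knockdowns ran from -3.28 to -0.29, so all 12 knockdown libraries lay below the control. The medians of siEED (-0.29), siBRCA2 (-0.35), siBRCA1 (-0.85), siKDM1A (-1.03) and siRAD21 (-1.34) lay above those of siMALAT1 and siPCAT1. Those of siSMARCA4 (-1.99), siCTCF (-2.45), siEZH2 (-3.00), siFOXM1 (-3.15) and siFOXA1 (-3.28) lay below them. CCNB1 and CDK1, the cyclin and kinase that drive entry into mitosis, were at 28.9, 33.0 and 73.3 FPKM and at 30.8, 34.7 and 87.3 in siMALAT1, siPCAT1 and the control. CDC20 and UBE2C, which direct destruction of mitotic cyclins, were at 20.6, 22.4 and 64.5 and at 19.1, 21.4 and 59.8. MAD2L1, a spindle checkpoint protein, was at 12.3, 16.4 and 40.1, and the spindle factor TPX2 at 11.6, 15.6 and 38.5. These last 2 members had the widest gaps between the libraries on this list, at -0.38 and -0.39 for siMALAT1 minus siPCAT1.

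The G1/S and replication list had medians of -1.28 and -1.20, with 24 and 20 of 27 members 2-fold lower, beside 1.57% and 1.33% of all genes. Its members were not equally low in the 2 libraries. FEN1, the nuclease that trims Okazaki fragments, was at 8.04 FPKM in siMALAT1, 15.8 in siPCAT1 and 40.5 in the control, and UHRF1, which maintains DNA methylation after replication, was at 2.78, 4.40 and 11.4. DTL, which marks replication factors for destruction and is not on this list, was at 1.32, 2.44 and 8.21 FPKM. All 3 were lower in siMALAT1 than in siPCAT1, with differences of -0.89, -0.51 and -0.57. PCNA, the sliding clamp of DNA polymerases, went the other way, at 44.6, 37.7 and 107 FPKM. MCM7, a helicase subunit, was at 30.3, 37.6 and 64.6, and RRM1, the catalytic partner of RRM2, at 28.4, 28.4 and 64.4. DCK, a kinase that salvages deoxynucleosides, is not on the list either. It was at 11.5, 6.02 and 19.3, and so 0.83 lower in siPCAT1 than in siMALAT1.

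Homologous recombination and Fanconi anemia genes, the repair genes to which PCAT1 has been linked, had medians of -0.91 in siMALAT1 and -0.85 in siPCAT1, against -1.56 to -0.27 elsewhere. Of 22 members, 10 and 7 were 2-fold lower, beside 1.57% and 1.33% of all genes. Of the 22, 19 were lower in siMALAT1 than in siPCAT1, beside 52.6% of all genes. BRCA2 was at 0.850, 0.948 and 3.25 FPKM in siMALAT1, siPCAT1 and the control. BRCA1 was at 3.33, 4.35 and 11.1, the repair scaffold FANCI at 10.5, 12.8 and 30.2, and FANCD2, its partner, at 4.72, 6.12 and 13.4. FANCA, of the Fanconi core complex, was at 2.04, 2.91 and 6.78 FPKM. RAD51C and XRCC2, both of homologous recombination, stood at 25.0, 28.4 and 44.4 and at 6.38, 7.95 and 12.6, and BARD1, the partner of BRCA1, at 11.5, 11.2 and 18.3. No repair gene named here lay above the control in either library.

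Other factors targeted in the series were low in these libraries too, without their siRNAs. FOXM1, a transcription factor of mitotic genes, was at 7.56, 6.63 and 20.1 FPKM (-1.30 and -1.47), inside the range of the other knockdowns. EZH2, the methyltransferase of PRC2, was at 8.71, 9.52 and 16.4, and the cohesin subunit RAD21 at 56.7, 58.2 and 88.5. CTCF, EED, FOXA1, KDM1A and SMARCA4 lay within 0.34 of the control in both. Over the PRC2 list the medians were -0.24 and -0.09. PHF19, an accessory subunit, was at 3.13, 2.23 and 5.62 FPKM, SUZ12 at 27.5, 30.8 and 32.3, RBBP7 at 61.6, 61.4 and 74.2, RBBP4 at 18.8, 22.0 and 23.9, and AEBP2 at 6.12, 8.38 and 7.34. Only PHF19 passed 2-fold, and only in siPCAT1.

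**Figure D1:**
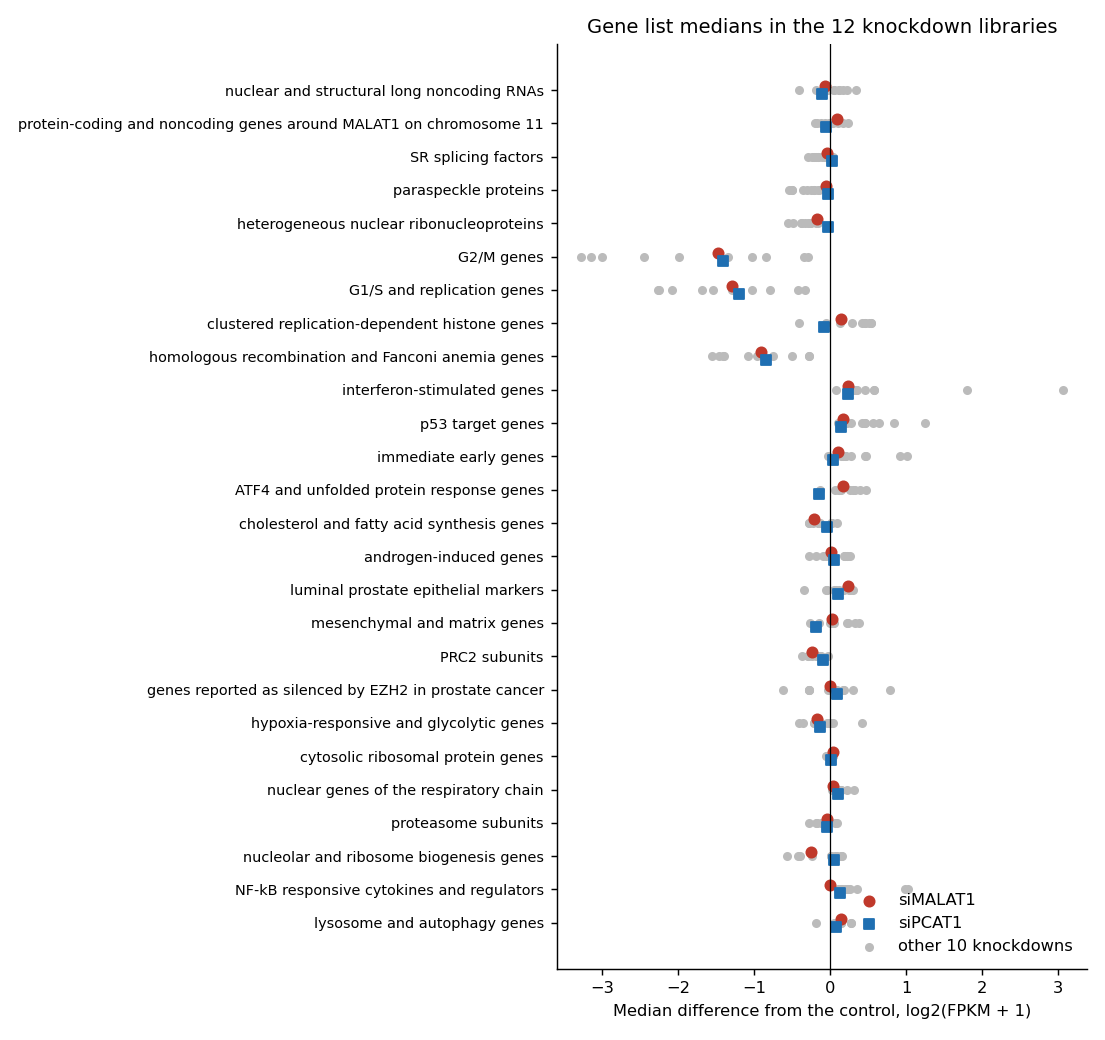
Median difference from the control, in log2(FPKM + 1), for each gene list with at least 5 measured members; red circles are siMALAT1, blue squares siPCAT1 and grey points the other 10 knockdowns. The G2/M medians of -1.48 and -1.41 and the G1/S medians of -1.28 and -1.20 lie farthest from 0 for the 2 libraries, within the grey points.

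At another set of genes the 2 libraries lay with the control and apart from the other knockdowns. At a gap of at least 0.3, a margin set after the values were seen, siMALAT1, siPCAT1 and the control all lay below the other 10 knockdowns at 18 genes (0.114%) and above them at 6 (0.038%). By any amount the counts were 388 (2.46%) and 161 (1.02%). ATF3, a transcription factor induced by many stresses, was at 10.9, 11.2 and 8.76 FPKM in siMALAT1, siPCAT1 and the control, and at 27.8, 38.7 and 53.1 at the lowest, median and highest of the others. CDKN1A, the p53-induced cell cycle inhibitor p21, was at 36.1, 25.0 and 22.5, against 47.5, 85.5 and 440. Both genes were picked by this gap, so the lack of overlap with the other 10 follows from the choice.

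Several of the other genes picked by this gap on the low side are induced in cell stress, a theme that was not tested. The whole list of ATF4 and unfolded protein response genes is described below. Its median difference from the control was 0.17 in siMALAT1, inside the -0.13 to 0.47 of the other knockdowns. In siPCAT1 it was -0.15, just below that range. Against the median of the other 10 knockdowns, the list was at -0.43 in siMALAT1 and -0.36 in siPCAT1. DDIT3, the transcription factor CHOP, was at 41.5, 36.0 and 32.01 FPKM against 52.8 to 80.2, and PPP1R15A, which reverses the block on translation, at 2.67, 2.22 and 2.07 against 3.59 to 9.63. HERPUD1, of the degradation pathway of the endoplasmic reticulum, was at 41.4, 34.3 and 41.8 against 58.4 to 96.8. SESN2, a stress-induced inhibitor of mTORC1, was at 4.33, 4.01 and 3.63 against 6.43 to 15.9. GDF15, a secreted stress cytokine, stood at 4.27, 5.25 and 4.13 against 6.87 to 40.1, and CYR61, a YAP-regulated matrix protein, at 4.21, 3.82 and 3.32 against 5.77 to 23.0. STK40 (12.9, 9.56 and 11.5 against 17.5 to 23.2) and the histone methyltransferase gene KMT2A (4.73, 5.11 and 5.73 against 7.62 to 11.2) were on the low side too, as were MACF1, LYST and RPL34. That all 3 libraries were below the lowest of the other 10 at each of these genes follows from how they were picked. GAGE7, a cancer-testis antigen at 1.40, 0.369 and 2.14 FPKM against 9.49 to 38.8, has near-identical copies, so its reads may have been divided among them.

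On the high side was NR3C1, the glucocorticoid receptor, at 7.11, 5.09 and 5.999 FPKM against 0.889, 1.58 and 2.51 at the lowest, median and highest of the other 10. MDK, the growth factor midkine, was at 43.7, 42.7 and 47.2 against 11.1 to 29.0. HMGB1, a chromatin protein, was at 167, 174 and 183 against 80.0 to 132, the testis-enriched chaperone HSPA2 at 3.92, 4.01 and 3.24 against 0.924 to 2.31, and the potassium channel KCNQ5 at 6.04, 6.39 and 7.34 against 2.20 to 4.57. Whether these libraries were processed together is not given in the labels, and what sets them apart from the other 10 was not tested.

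**Figure D2:**
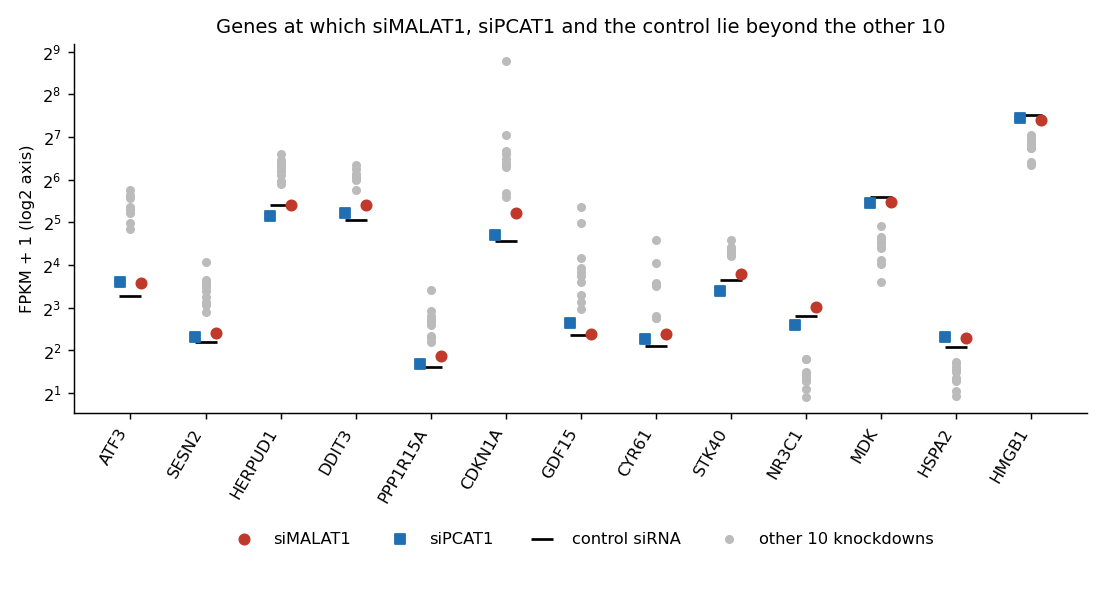
Level of 13 genes in all 13 libraries, as FPKM + 1 on a log2 axis; red circles are siMALAT1, blue squares siPCAT1, black bars the control and grey points the other 10 knockdowns. The genes were picked for a gap between siMALAT1, siPCAT1 and the control on one side and the other 10 on the other. At ATF3 these 3 libraries sit between 8.76 and 11.2 FPKM and the other 10 between 27.8 and 53.1. At NR3C1 the 3 sit above the others.

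Interferon-stimulated genes lay close to the control in both libraries. Their medians were 0.23 and 0.23, with 0 of 31 members 2-fold away, where other knockdowns reached from 0.08 to 3.07. Most members lay slightly above the control, 23 of 31 in siMALAT1 and 28 of 31 in siPCAT1, beside 52.4% and 53.4% of all genes. IFI6, an interferon-induced mitochondrial protein, was at 7.35, 11.1 and 5.65 FPKM in siMALAT1, siPCAT1 and the control against 13.1 to 622 in the others. ISG15, a ubiquitin-like modifier, was at 15.6, 19.3 and 14.6 against 17.0 to 595, and IFIT1, which binds viral RNA, at 2.60, 4.68 and 2.10 against 3.05 to 269. OASL, of the oligoadenylate synthetase family, was at 1.81, 2.36 and 0.831 against 2.26 to 437, and the membrane protein IFITM3 at 40.6, 43.3 and 34.7 against 18.8 to 173. In siPCAT1, IFI6, IFIT1 and OASL lay 0.87, 0.87 and 0.88 above the control. Of the 31, 21 were lower in siMALAT1 than in siPCAT1, beside 52.6% of all genes.

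p53 target genes had medians of 0.17 and 0.15 and none was 2-fold away. SESN1, a sestrin, was at 99.0, 136 and 72.9 FPKM, and the damage sensor gene DDB2 at 10.9, 6.29 and 9.28. The death receptor FAS was at 23.3, 15.8 and 19.2, TNFRSF10B, another death receptor, at 25.9, 30.1 and 26.8, and TP53INP1, an autophagy and apoptosis regulator, at 41.9, 48.3 and 43.3. With CDKN1A given above, the members differed among themselves in which of the 2 libraries was higher.

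The ATF4 and unfolded protein response list parted the libraries slightly, with medians of 0.17 in siMALAT1 and -0.15 in siPCAT1, and 15 of 19 members higher in siMALAT1, beside 47.2% of all genes. ATF4 itself was at 369, 294 and 303 FPKM. DNAJB9, a chaperone of the endoplasmic reticulum, was at 25.2, 15.1 and 15.9, CHAC1, which degrades glutathione, at 3.30, 1.83 and 2.19, and CALR (calreticulin) at 810, 675 and 717. HSP90B1 was nearly equal at 482, 470 and 473. PHGDH, the first enzyme of serine synthesis, was below the control in both, at 154 and 166 against 250 FPKM, and below the lowest other knockdown, at 177.

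Directly compared, the libraries labelled siMALAT1 and siPCAT1 were the most alike of all 78 pairs in the series. Only 145 genes (0.919%) were 2-fold apart, 89 higher in siMALAT1 (0.564%) and 56 lower (0.355%). The next pairs were siMALAT1 with siSMARCA4 at 180 genes and siPCAT1 with siSMARCA4 at 193, and the median pair had 483. This comparison does not use the control. No repeat of a condition was analysed here, so how far 2 repeats would lie apart is unknown.

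Several abundant transcripts were at their lowest in siMALAT1. NPM1 (nucleophosmin) and NCL (nucleolin), major proteins of the nucleolus, were at 238 and 171 FPKM there. In siPCAT1 they were at 666 and 607, in the control at 640 and 444, and in the other knockdowns no lower than 447 and 251. The direct differences were -1.48 and -1.83. NPM1 has many processed pseudogenes that may have taken part of its reads. NCL also separated siPCAT1, whose level lay above all other 12 libraries.

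Over the list of nucleolar and ribosome biogenesis genes, the median was -0.25 in siMALAT1 and 0.05 in siPCAT1. A low median was not particular to siMALAT1, since siSMARCA4 was at -0.24, siFOXM1 at -0.40, siRAD21 at -0.42 and siFOXA1 at -0.56. All 21 members were lower in siMALAT1 than in siPCAT1, beside 52.6% of all genes, although only NPM1 and NCL passed 2-fold. GNL3 (nucleostemin) was at 139, 166 and 127 FPKM in siMALAT1, siPCAT1 and the control, and ODC1, of polyamine synthesis, at 179, 180 and 220. The median direct difference was -0.22, where that of all genes was -0.01. Cytosolic ribosomal protein genes, by contrast, had medians of 0.04 and 0.01.

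Beyond all other 12 libraries by at least 1, siMALAT1 was lower at 6 genes (0.038%) and higher at 0. Of these 6, 5 had usable symbols. CSTB, the cathepsin inhibitor cystatin B, was at 58.6 FPKM in siMALAT1, 198 in siPCAT1 and 193 in the control, and no lower than 128 in the rest. EIF3I, a subunit of the translation initiation factor eIF3, was at 57.7, 162 and 144 against a lowest of 131. LITAF, a protein of late endosomes, was at 10.2, 25.7 and 26.8 against 25.0. CDIPT, which makes phosphatidylinositol, was at 11.2, 26.1 and 29.2 against 25.5, and SLC35A2, the Golgi transporter of UDP-galactose, at 6.31, 17.4 and 17.0 against 15.5. At each of the 5, siPCAT1 stood near the control, with the widest difference, 0.172, at EIF3I.

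With a gap of 0.5, chosen for naming after the values were seen, 27 genes were lower in siMALAT1 than in all other libraries (0.171%) and 24 higher (0.152%). Among those lower were HYOU1, a chaperone of the endoplasmic reticulum (30.1, 59.4 and 61.8 FPKM), ARHGDIA (55.9, 104 and 138), and the lectin CLEC2D (5.48, 15.3 and 14.5). Import and ribosome assembly were represented by TIMM22 (6.06, 12.2 and 13.5) and IMP4 (21.8, 42.2 and 41.8). RPS13, at 570, 847 and 957 FPKM, has near-identical copies and is uncertain.

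Among genes higher in siMALAT1, TSC22D3, also called GILZ, which glucocorticoids induce, stood at 77.4 FPKM in siMALAT1, 49.2 in siPCAT1 and 25.5 in the control, and at 7.66, 24.9 and 43.9 at the lowest, median and highest of the others. Both libraries thus lay above all other 11, siMALAT1 by the wider margin. MST1, which encodes a hepatocyte growth factor-like protein, was at 6.63, 3.20 and 2.05. GCG, the glucagon gene, was at 30.6, 16.9 and 16.6 against 1.18 to 15.96. BAMBI, a decoy receptor of TGF-beta signalling, was at 58.4, 38.3 and 29.1, and the neuronal catenin CTNNA2 at 12.98, 8.16 and 7.28. PARP3, of DNA break repair, stood at 10.1, 5.81 and 4.99, and SEMA3B, a secreted semaphorin, at 4.39, 1.95 and 1.92. In all of these siMALAT1 was the highest of the 13 libraries.

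Other large differences from the control came close to, or lay within, the range of the other knockdowns. OPLAH, an enzyme of glutathione turnover, was at 7.91 FPKM against 1.1004 in siPCAT1 and 0.385 in the control, but reached 12.6 in another knockdown. FAXDC2, of a lipid hydroxylase family, was at 2.66, 0.524 and 0.535, with another knockdown at 2.63. TFF1, a secreted trefoil peptide, was at 20.3, 7.55 and 6.88 within a range of 1.11 to 29.6. ZC3H12A, an RNase that curbs inflammatory transcripts, was at 22.4, 13.2 and 9.61, and at its highest in siMALAT1, with 19.1 in the next knockdown.

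**Figure D3:**
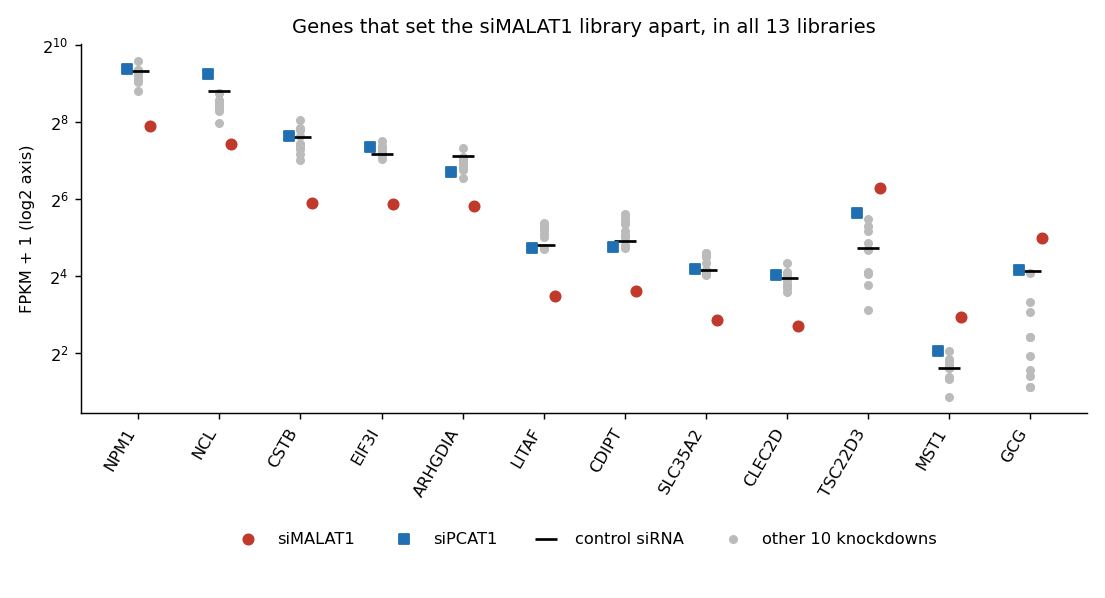
Level of 12 genes in all 13 libraries, as FPKM + 1 on a log2 axis; red circles are siMALAT1, blue squares siPCAT1, black bars the control and grey points the other 10 knockdowns. From NPM1 to CLEC2D the red circle is the lowest point, with CSTB at 58.6 FPKM against at least 128, and at TSC22D3, MST1 and GCG it is the highest.

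MYNN, a zinc finger protein gene, was among the genes at their highest in siPCAT1, and it was high in siMALAT1 too. It was at 35.9 FPKM in siPCAT1, 22.2 in siMALAT1 and 8.70 in the control, and at 5.11, 8.25 and 17.9 at the lowest, median and highest of the others. MYNN was the only gene with a usable symbol and no near-zero library that was 2-fold higher in both. Among its neighbours by gene order, some were high in siPCAT1 and others were not. The next gene on one side, ACTRT3, encoding an actin-related protein, was at 9.63, 4.88 and 2.94 FPKM. The other knockdowns ran from 0.545 to 10.4 at this gene. TERC, the telomerase RNA, was at 3.93, 1.69 and 0.609, against 0.0755 to 5.28. Both were thus higher in another knockdown than in siPCAT1. Reads of these adjoining genes could be shared where they overlap, and TERC was near 0 in some libraries. MECOM, 3 genes away, was at 4.30, 2.75 and 2.41, and LRRC31, 3 genes away on the other side, at 6.58, 6.99 and 4.73. SEC62, 5 genes away, was at 34.4, 26.5 and 25.6 FPKM. LRRC34, next to MYNN on that side, was under 1 FPKM in all 3 libraries. GOLIM4, 4 genes away, was lower in siPCAT1, at 74.2, 107 and 119 FPKM, and SERPINI1, 5 away, was at 125, 129 and 118.

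SLC22A3, an organic cation transporter, was at 11.8 FPKM in siPCAT1, 5.77 in siMALAT1 and 3.98 in the control, and at most 4.70 in the rest. PHB2 (prohibitin 2), with near-identical copies and therefore uncertain, was at 13.2, 5.43 and 4.08. LINC00648, a long noncoding RNA, was at 8.85, 1.33 and 1.37. These 3 had their highest level in siPCAT1. Beyond all other 12 libraries by 0.5, siPCAT1 was higher at 12 genes (0.076%) and lower at 27 (0.171%), and by 1 at 0 and at 1 (0.00634%), the latter an entry with an Ensembl identifier only.

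The genes lowest in siPCAT1 had varied roles. KIF3B, a kinesin motor subunit, was at 9.23 FPKM in siPCAT1, 18.5 in siMALAT1 and 25.3 in the control, against at least 19.9 in the other 10 knockdowns. CDC42SE2, a CDC42 effector, was at 9.88, 23.9 and 25.4, and SH3GL1, an endophilin of membrane traffic, at 20.0, 48.0 and 41.1. FGFRL1, a receptor that binds fibroblast growth factors without a kinase domain, was at 4.67, 11.6 and 12.5. In each of these siPCAT1 was the lowest of 13.

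Genes of organelles and protein turnover were among them. CYB561A3, a lysosomal cytochrome, was at 17.5, 36.6 and 42.2 FPKM, GALC, a lysosomal galactosylceramidase, at 2.04, 5.53 and 4.45, and TIMM50, of mitochondrial import, at 9.08, 18.2 and 18.8. DIMT1, which methylates ribosomal RNA, was at 10.8, 24.3 and 21.1. The proteasome subunits PSMB2 and PSMA3 were at 12.8, 22.5 and 22.8 and at 61.1, 105 and 109. The other proteasome genes did not follow, since the list's median was -0.04 in siPCAT1.

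IGFBP3, which binds insulin-like growth factors, differed in opposite directions from the control, at 18.5 FPKM in siPCAT1, 80.9 in siMALAT1 and 54.5 in the control. CAMK2N1, an inhibitor of the kinase CaMKII, did likewise at 3.46, 17.9 and 6.59, and PLA2G2A, a secreted phospholipase, at 26.1, 78.8 and 35.7. For CAMK2N1 and PLA2G2A siPCAT1 was the lowest library, while IGFBP3 was at 9.87 in another knockdown. PEX10, of peroxisome assembly, was at 18.8, 47.8 and 44.3, and the F-box protein gene FBXL16 at 1.81, 5.93 and 4.56. CSAG2, a cancer-testis gene, was on the other side at 9.87, 1.84 and 4.97.

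LDHA, lactate dehydrogenase A, was at 119 FPKM in siPCAT1, 214 in siMALAT1 and 306 in the control. The other knockdowns ran from 48.6 to 411, and siPCAT1 was the 4th lowest of the 13 libraries. Other hypoxia-responsive and glycolytic genes differed less, with medians of -0.13 and -0.18 in siPCAT1 and siMALAT1. ENO1 was at 350, 356 and 452, ALDOA at 595, 595 and 680, TPI1 at 495, 590 and 585, and PGAM1 at 216, 210 and 237. ADM, a hypoxia-induced peptide, was at 0.961, 1.83 and 1.18. NXPH4, a neurexophilin, was at 5.43, 13.5 and 15.4 FPKM.

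**Figure D4:**
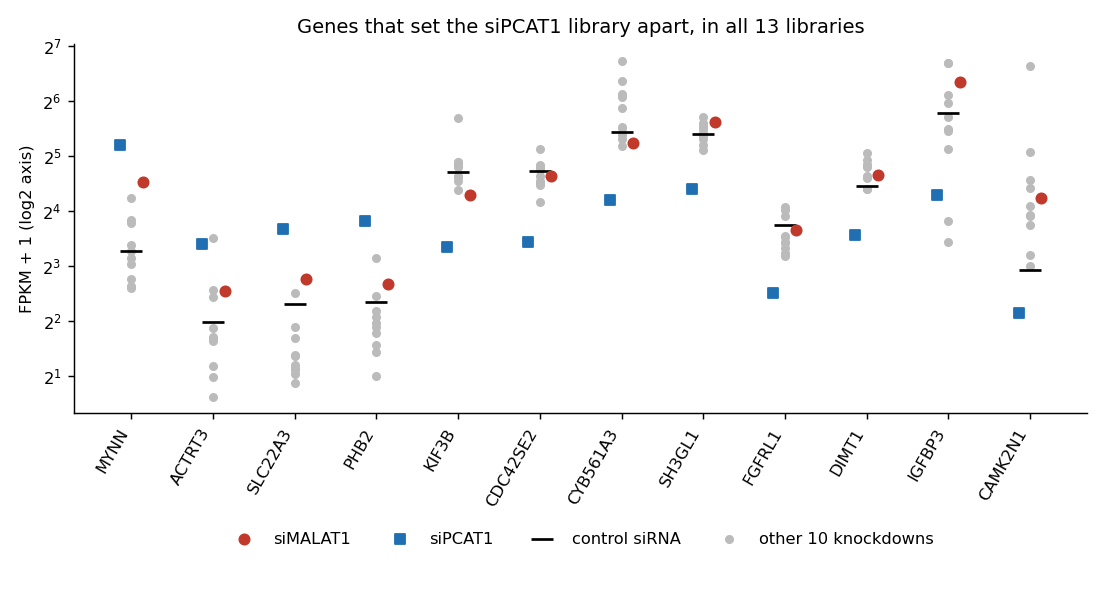
Level of 12 genes in all 13 libraries, as FPKM + 1 on a log2 axis; blue squares are siPCAT1, red circles siMALAT1, black bars the control and grey points the other 10 knockdowns. MYNN is at 35.9 FPKM in siPCAT1 and at most 22.2 elsewhere, and from KIF3B to DIMT1 the blue square is the lowest point.

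Genes at which both libraries together lay beyond the other 11 were few. At a gap of 0.5 there were 0 higher and 1 lower (0.00634%), SNHG12, a host of small nucleolar RNAs, which was near 0 in both (0.000572 and 0.0164 FPKM) and at 1.34 in the control. Entries that drop to near 0 in some library are unstable, so this value is uncertain. At a gap of 0.3, added after the values were seen, there were 14 higher (0.0887%) and 8 lower (0.0507%), and by any amount 410 (2.6%) and 460 (2.92%). DDX5, an RNA helicase of transcription and splicing, was at 319 FPKM in siMALAT1, 314 in siPCAT1 and 218 in the control, against 180 to 252 in the rest. ADD3, a protein of the membrane skeleton, was at 122, 123 and 88.0 against 42.9 to 96.3, and PMP22, a myelin protein gene, at 65.1, 57.3 and 42.8 against 5.25 to 39.7. CCAR1, a coactivator linked to apoptosis, was at 87.5, 97.3 and 67.9 against 50.8 to 69.9, and SNRNP35, of the minor spliceosome, at 24.2, 23.2 and 17.8 against 12.4 to 17.3. On the low side were SKI, a repressor of TGF-beta signalling (11.6, 11.04 and 20.0 against 15.8 to 23.4), the transcription factor POU2F1 (3.31, 3.38 and 4.53 against 4.64 to 7.17) and PMAIP1, the proapoptotic protein NOXA (1.22, 1.31 and 2.35 against 1.91 to 8.02). All of these gaps were under 2-fold.

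Splicing factors, among them proteins of the compartment in which MALAT1 resides, differed little from the control. The SR protein list had medians of -0.04 in siMALAT1 and 0.03 in siPCAT1, and the paraspeckle protein list -0.05 and -0.03, with 0 members 2-fold away. On the paraspeckle list the medians of the other 10 knockdowns all lay lower, from -0.55 to -0.14. SRSF2 was at 125, 115 and 138 FPKM in siMALAT1, siPCAT1 and the control, and SRSF5 at 145, 162 and 126. The heterogeneous nuclear ribonucleoproteins had medians of -0.18 and -0.02, with HNRNPA1 at 234, 248 and 252, HNRNPA2B1 at 339, 321 and 321, HNRNPC at 143, 169 and 159 and HNRNPL at 216, 209 and 207. Genes around MALAT1 on its chromosome had medians of 0.09 and -0.06, with FAM89B, at 30.2, 14.1 and 24.2 FPKM, the farthest apart.

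Lipid synthesis genes had medians of -0.21 in siMALAT1 and -0.04 in siPCAT1, with 0 of 22 members 2-fold away. FDFT1 (squalene synthase), of cholesterol synthesis, was at 120, 159 and 115 FPKM. FASN, the fatty acid synthase, was below the control in both, at 229 and 213 against 298, as were SCD (283 and 292 against 334) and, in siMALAT1 alone, ACLY (98.5, 127 and 122).

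Luminal prostate markers had medians of 0.23 in siMALAT1 and 0.11 in siPCAT1, with none 2-fold away. FOLH1, the prostate-specific membrane antigen, was at 516, 348 and 330 FPKM, the highest of 13 libraries in siMALAT1. KRT8 was at 175, 149 and 127 and KRT18 at 151, 164 and 136, and CDH1 (E-cadherin) at 132, 156 and 135. KRT19 was at 2.78, 1.40 and 2.71, and SLC45A3, an androgen-induced transporter, at 7.60, 12.2 and 6.44. The mesenchymal list rested on 6 measured genes at low levels, with medians of 0.03 and -0.19. FN1 (fibronectin) was at 3.28, 3.43 and 5.24, and ACTA2, VIM, COL1A1 and COL3A1 were at 4.18 FPKM or less in all 3 libraries.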

How the data were processed

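RNA sequencing of 13 LNCaP-abl libraries was analysed, 1 per siRNA. Reads were aligned with TopHat and expression estimated with Cufflinks on hg19, per the submitters' processing notes, without version numbers. The authors deposited log2 values of FPKM for 22613 entries, with a floor at the log2 of 0.1. Values were therefore read as log2(FPKM + 0.1), turned back to FPKM with values at the floor as 0, and differences taken on log2(FPKM + 1), which understates changes of low genes. Sorted values differed by at most 0.0562 between libraries, so a common distribution had been imposed before deposit, a step no label records. Without counts the depth is unknown and no counting intervals are given.

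Genes averaging at least 0.5 FPKM over 13 libraries were kept and 771 small RNA entries left out, which gave 15780 genes. With 1 library a group no test was made. Named genes followed a rule: the targets, the 8 largest differences per direction from the control that also differed by at least 0.5 from the median of the other knockdowns, the 8 per direction that were 2-fold from the control in both, ranked by the smaller difference, the 10 largest direct differences, genes beyond all other libraries, and 4 members by level and 2 by direct difference of each described list. A list was described where its median lay 0.15 or more from that of all genes, or 0.2 between the 2 libraries. That held for 13 of 26 lists with at least 5 measured members, and 6 of the 32 lists had fewer. Genes outside the rule were chosen after their values were seen, as stated beside them or, for members of lists not described and targets of the other siRNAs, here. Entries near 0 in some library that the rule named (RPL21, PTCHD3P1, GAGE6, UBXN8, SLC37A4, PLGLB2 and vault RNAs) are not described. Some other genes that the rule names are not reported here. The members and lists were chosen with earlier results of these data known.

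Promoters are from RefSeq on GRCh38.p14. The reference is of another build than the files and served only for names, gene order and promoters. The scripts were tested on simulated data. Alternatives were a pseudocount of 0.1, a minimum mean of 5 FPKM, no filter, small RNA entries kept, quantile normalization, centring on the median, and, as the reference, the median of the other 10 knockdowns. Whether strand was used in counting is not stated.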

Additional observations from a re-analysis of the deposited data

How the results depend on the processing

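No paired analysis was possible because each group has 1 library, and for the same reason no replicate could be left out. A pseudocount of 0.1 gave 247 genes 2-fold higher and 459 lower in siMALAT1, 202 and 422 in siPCAT1, 301 and 198 in the direct comparison, 90 and 238 in both, 8 in opposite directions, and 5 and 6 with both libraries beyond the other 11. It moved the G1/S direct median from -0.1496 to -0.177 and the p53 median of siPCAT1 from 0.146 to 0.153, small steps across the 0.15 limit. A minimum of 5 FPKM, which tests fewer genes, gave 19 and 150 in siMALAT1, 12 and 137 in siPCAT1, 40 and 20 directly, 5 and 102 in both, and 0 lower with both beyond the other 11. The p53 median of siMALAT1 became 0.0771 and the luminal median of siPCAT1 0.20. At this minimum the mesenchymal list was left with FN1 alone, so its values are those of FN1. They were -0.54 in siMALAT1 and -0.0509 directly, the latter of opposite sign to the direct median of the full list. Keeping small RNA entries, which tests more genes, gave 176 and 378, 163 and 324, 201 and 179, 62 higher in both, 8 in opposite directions, and 1 and 2 with both beyond the other 11. With no filter the mesenchymal medians were 0.17, -0.14 and 0.0699 in siMALAT1, siPCAT1 and directly. Centring moved the direct median of homologous recombination genes from -0.160 to -0.146. In siPCAT1 it moved the ATF4 list from -0.147 to -0.166 and the hypoxia list from -0.133 to -0.152. Quantile normalization changed no count, median or named gene beyond these limits. The deposited values already shared 1 distribution, so this alternative could change little. The cause of these shifts was otherwise not tested.

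The cell cycle values depended on the reference chosen. The other 10 knockdowns were themselves below the control on the G2/M list, with medians from -3.28 to -0.29. With their median in place of the control, 68 genes were 2-fold lower in siMALAT1, 76 in siPCAT1 and 16 in both, with 3 in opposite directions. List medians in siMALAT1 and siPCAT1 were then 0.22 and 0.27 for G2/M, -0.0228 and 0.19 for G1/S, 0.0552 and 0.20 for homologous recombination, -0.27 and -0.31 for interferon-stimulated genes, -0.24 and -0.36 for p53 targets, -0.43 and -0.36 for the ATF4 list, and 0.16 and 0.31 for the ribonucleoproteins. In siMALAT1 alone the cholesterol list was at -0.0542, the luminal at 0.15, the mesenchymal at -0.27, the PRC2 list at -0.0065 and the hypoxia list at -0.0381. Signs turned for RPL21 (-0.20 in siMALAT1), PTCHD3P1 (-0.0469 and -0.27), GAGE6 (-0.45), MYBL2 (0.0109), CEP55 (0.33 and 0.29), CDCA3 (0.0903) and FAM64A (0.33 and 0.31). Differences that shrank below 2-fold included FEN1 (-0.78) and DTL (-0.54) in siMALAT1 and DCK (-0.59), PCNA (-0.55) and LDHA (-0.77) in siPCAT1. Leaving out entries near 0 in some library, chosen after seeing the data, gave 31 genes higher in siPCAT1, 6 higher in both and 0 lower with both beyond the other 11.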

Other observations

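Several gene groups of these libraries were not described above. Replication-dependent histone genes, whose members are made in S phase, had medians of 0.14 in siMALAT1 and -0.08 in siPCAT1, apart from the replication genes. HIST1H1C was at 136, 246 and 154 FPKM in siMALAT1, siPCAT1 and the control, HIST2H2BE at 54.1, 68.4 and 37.0, and HIST1H2AC at 44.5, 57.8 and 33.3, where other knockdowns ran from 40.8 to 101. These members lay above the control in siPCAT1, whereas only 8 of the 18 measured did, and HIST1H2AB was 2-fold lower at 1.23, 0.955 and 2.98 FPKM. Immediate early genes had medians of 0.11 and 0.03, with JUNB at 22.5, 12.7 and 15.2 FPKM and JUN at 32.1, 41.3 and 27.7.

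Among NF-kB responsive genes, IL1B was at 0.717, 2.14 and 0.787 FPKM and SOD2, the mitochondrial superoxide dismutase, at 13.9, 22.1 and 23.2. Nuclear genes of the respiratory chain had medians of 0.04 and 0.10, and lysosome and autophagy genes 0.14 and 0.08. SQSTM1, the autophagy receptor p62, was at 208, 234 and 198 FPKM against 205 to 372 in the other knockdowns.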
